A study of Mus musculus with 6 samples.

Results

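The genes described here encode the nuclear part of the oxidative phosphorylation machinery, measured by RNA sequencing in the frontal cortex of microglia-depleted and control mice. Members were taken by name: rows of the gene table whose symbol begins with Nduf, Uqcr, Cox4, Cox5, Cox6, Cox7, Cox8 or Atp5, together with Sdha, Sdhb, Sdhc and Sdhd, without pseudogene symbols. Of 92 such rows, 91 had a mean of at least 0.5 FPKM (fragments per kilobase of transcript, scaled to library size, so a level corrected for length) over the 6 mice, among 14385 genes that reached this mean and 23366 genes in the table. The row that missed it was Cox8c, at 0 FPKM in every mouse, and the member nearest to the limit on the inside was Cox7b2, with a mean of 0.71 FPKM. The names caught 80 structural subunits and 11 other genes, namely 7 complex I assembly factors (Ndufaf genes), Atp5s, Atp5sl, Cox7a2l and Ndufa4l2.

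Oxidative phosphorylation is carried out in the inner mitochondrial membrane by 5 multi-subunit enzymes. Complex I (NADH dehydrogenase) and complex II (succinate dehydrogenase) pass electrons to ubiquinone, complex III (cytochrome bc1) passes them on to cytochrome c, and complex IV (cytochrome c oxidase) delivers them to oxygen. The proton gradient built by complexes I, III and IV drives the ATP synthase. Most subunits are encoded in the nucleus and a small core is encoded by mitochondrial DNA. Neurons depend heavily on this pathway to pay for ion pumping at synapses.

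The depleted group (mice A4, A5 and A6) carried CX3CR1-CreERT2+/- and iDTR+/-, in which tamoxifen switches on Cre under the CX3CR1 promoter and Cre then allows a diphtheria toxin receptor to be made in microglia and other CX3CR1-expressing cells. The control group (mice A1, A2 and A3) were littermates with CX3CR1-CreERT2+/- alone. Both groups were on the C57BL/6 background, had received tamoxifen, and carried the Cre allele. Diphtheria toxin triggered the depletion, cortex was taken on day 10 after it, and the sources used here do not state whether the sequenced controls received the toxin. The paper describes the mice as adult and matched for age and sex, with no ages given, and the labels give no sex. The Xist level of A3 and the Y-linked level of A4, given below, differed from those of the other mice. The paper reports that microglia return to the tissue within this interval, so the depleted samples are taken to hold repopulated cells. In bulk tissue, fewer cells of a type and less RNA per cell cannot be told apart.

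The libraries differed in ways that bear on the results. Depth, estimated from the step between low FPKM values, was 14.5, 20.6 and 18.2 M fragments in A1 to A3 and 13.7, 7.14 and 11.2 M in A4 to A6, so the depleted libraries were the shallower ones. The summed level of 10 interferon response genes was 22.1 to 34.7 FPKM in controls, 408 FPKM in A4, and 73.5 and 70.9 FPKM in A5 and A6. Xist, the X-inactivation RNA, stood at 4.74 FPKM in A3 against 30.9 to 46.7 FPKM in the other mice, and the summed Y-linked genes stood at 5.56 FPKM in A4 against at most 0.16 FPKM elsewhere. Every one of 8 cortical excitatory neuron markers was detected, with sums of 1810 to 2113 FPKM in controls and 1634 to 1791 FPKM in depleted mice. The gap in that sum rested on Nrgn (842 to 987 against 645 to 788 FPKM), and without it, a choice made after seeing the values, the other 7 overlapped (969 to 1126 against 989 to 1016 FPKM). The pan-neuronal sums (2693 to 2951 against 2518 to 2852 FPKM) and the inhibitory neuron sums (643 to 659 against 552 to 644 FPKM) overlapped as well. The summed oligodendrocyte markers were lower without overlap (2962 to 3224 against 2591 to 2681 FPKM). So were the oligodendrocyte precursor markers (69.7 to 82.0 against 47.0 to 64.8 FPKM) and the choroid plexus markers (168 to 325 against 46.5 to 71.4 FPKM). The hypothalamus markers summed to 476 FPKM in A3, against 143 and 102 FPKM in A1 and A2 and 118 to 150 FPKM in depleted mice. Pomc stood at 269 FPKM in A3 and at most 9.42 FPKM elsewhere. The astrocyte, microglia, endothelial and mural, striatum and thalamus sums overlapped. The part of depth and cell composition in the values below was not tested.

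As a group, the oxidative phosphorylation genes were expressed at high and closely similar levels in both groups of mice. Their summed level was 16749, 15776 and 17466 FPKM in A1 to A3 and 17127, 16626 and 17115 FPKM in A4 to A6. The control mice spanned the whole range of the depleted mice. These sums made up 4.18% ± 0.142 (SD, n = 3) of all FPKM in controls and 4.24% ± 0.0316 (SD, n = 3) in depleted mice. No member passed an adjusted p of 0.1 in limma's moderated test on log2(FPKM + 1), where 4 of all genes tested (0.0278%) did. The lowest adjusted p of any member was 0.225, for Cox8b. Fold changes below are on this log2 scale with their SE (n = 3 mice per group), and each adjusted p is limma's after Benjamini-Hochberg adjustment over all genes tested. At an unadjusted p under 0.05, 5 members were higher and 8 lower in depleted mice, or 14.3% of members against 10.5% of all genes (4.79% higher and 5.74% lower).

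The median log2 fold change of the 91 members was 0.026, against -0.0085 for all genes tested. In 52 members the depleted mean was the higher one and in 39 the lower one, that is 57.1% higher against 48% of all genes. The 3 depleted values and the 3 control values did not overlap for 7 members that were higher and 8 that were lower, or 16.5% of members, where 17.6% of all genes did not overlap (8.21% higher and 9.38% lower). The members' counts therefore lay near those of the table as a whole. Correction for GC content moved the split of members at an unadjusted p under 0.05 from 5 higher and 8 lower to 6 and 6, and that of non-overlapping members from 7 and 8 to 10 and 6. The median turned to -0.0035 under quantile normalization and to -0.0073 under a correction for transcript length.

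The intervals give the precision of these values. The fold change lay within 0.25 on the log2 scale for 78 members (85.7%, against 82.2% of all genes). The 95% interval of the fold change lay inside -0.5 to 0.5 for 80 members and inside -1 to 1 for 87. The 4 whose interval reached further were Ndufs5, Cox7a1, Cox8b and Cox7b2, 3 of them at low levels.

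**Figure D1:**
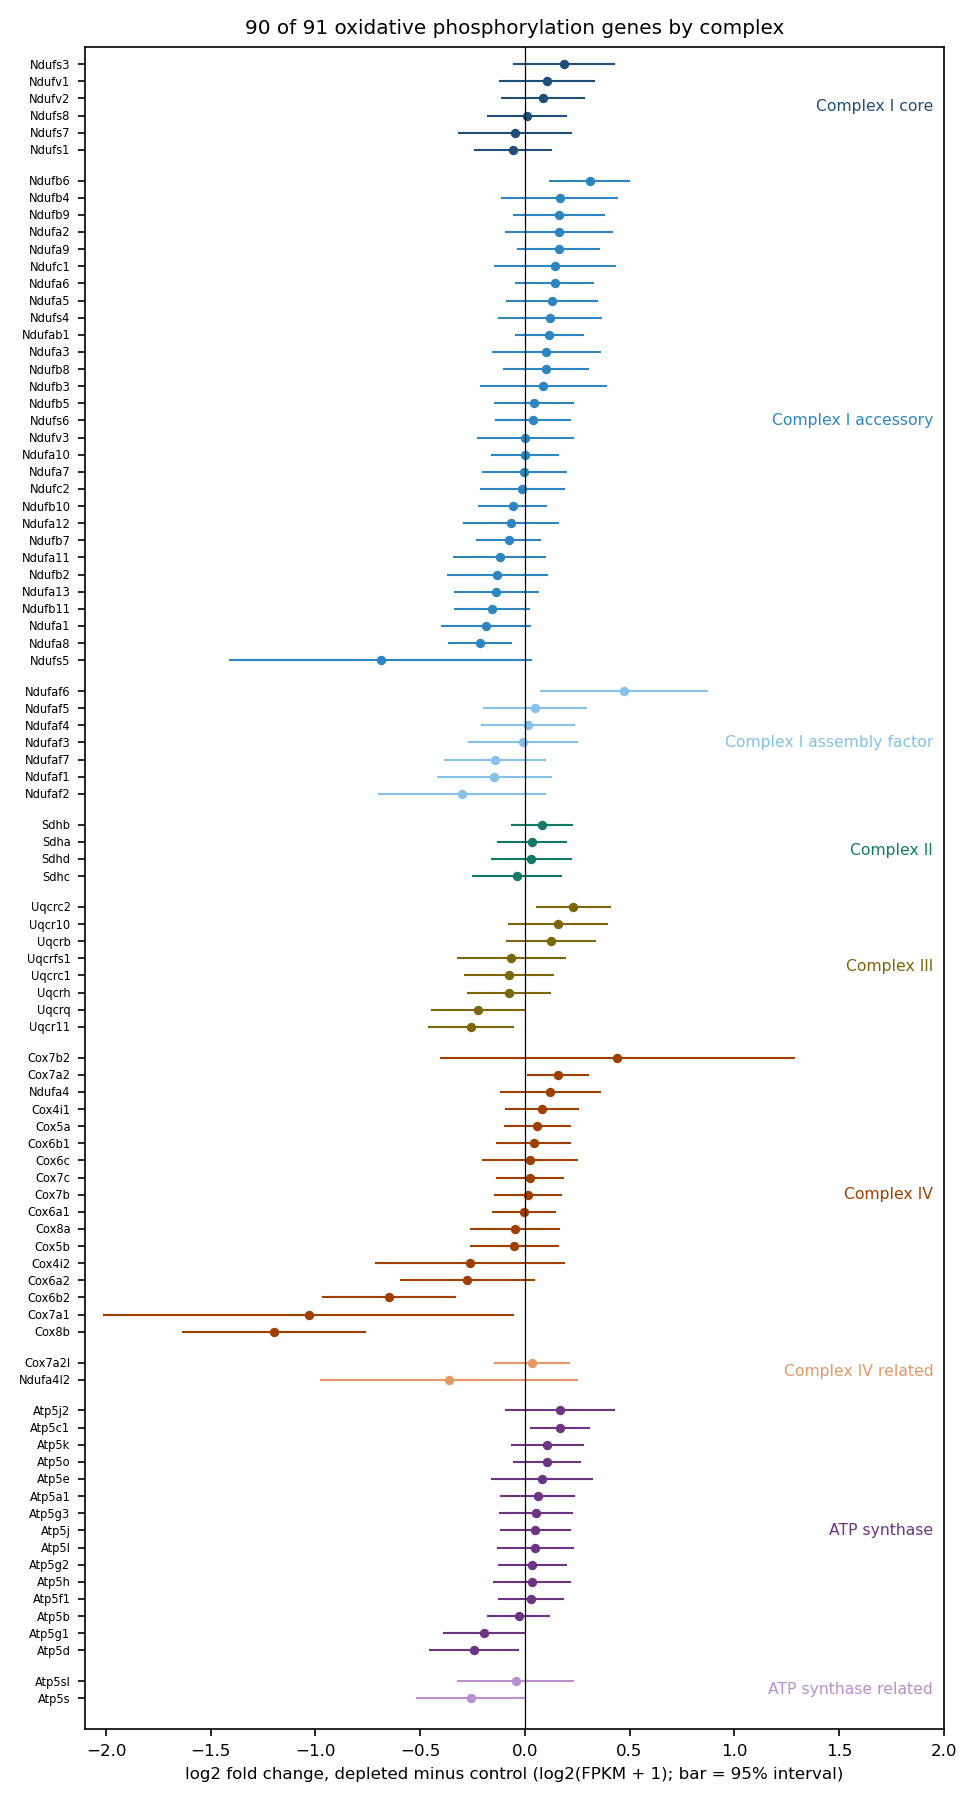
Log2 fold change (depleted minus control, x axis, on log2(FPKM + 1)) of 90 of the 91 genes, with points for the estimate and bars for the 95% interval, grouped and coloured by complex. Most points lie within 0.25 of 0, and the far left holds Cox8b at -1.20, Cox7a1 at -1.03, Ndufs5 at -0.69 and Cox6b2 at -0.65.

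In the median over all members, the control mice lay further apart than the depleted mice. The median member stood at 0.009, -0.064 and 0.057 log2 units from the control mean in A1, A2 and A3, and at 0.032, -0.013 and 0.026 in A4, A5 and A6. A2 was the lowest mouse and A3 the highest, a range of 0.121 among controls. In A3 76 of the 91 members had a higher level than in A2, where 52% of all genes did. The median of each depleted mouse fell between those of A2 and A3. Among members of at least 40 FPKM the median coefficient of variation over control mice was 6.21%, against 4.89% for all genes at that level.

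**Figure D2:**
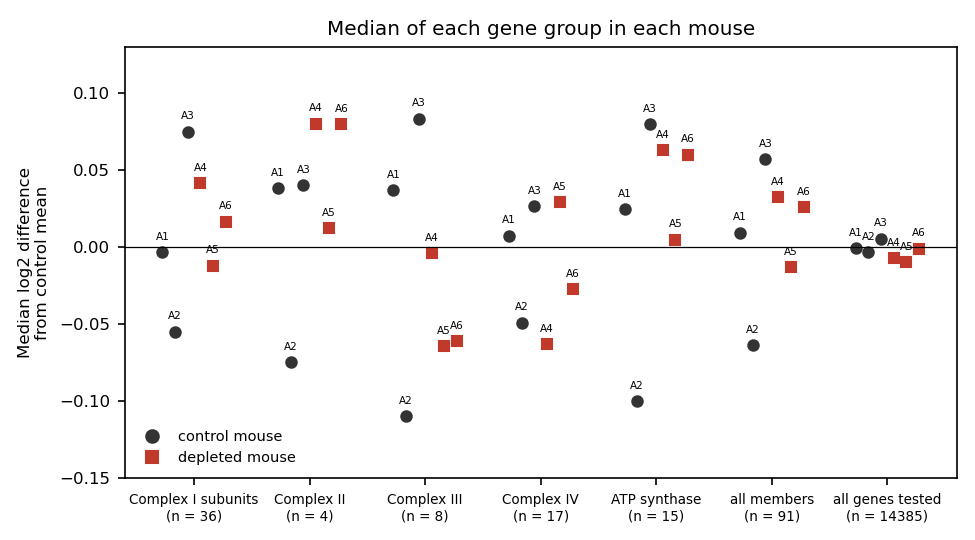
Median log2 difference from the control mean (y axis) over the genes of each complex, over all 91 members and over all genes tested, in each mouse, with circles for controls and squares for depleted mice. A2 is lowest in complexes I, II and III, in the ATP synthase and over all members, and the 6 mice lie close to 0 for all genes tested.

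Complex I takes electrons from NADH, and its 7 nuclear core subunits hold the flavin and the iron-sulfur clusters that carry them. These core subunits showed no common direction, with 4 higher, 3 lower and a median log2 fold change of 0.009. Ndufs3 had the highest fold change of the core, at 114, 121 and 127 FPKM in controls and 154, 118 and 143 FPKM in depleted mice. A4 and A6 lay above all controls and A5 within them (log2 fold change 0.19 ± 0.10 SE, adjusted p = 0.563).

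The 29 accessory subunits of complex I surround the core and are needed for its assembly and stability. Of these 17 were higher and 12 lower, with a median of 0.039. Ndufb6, a subunit of the membrane arm, read 94.2, 87.6 and 81.7 FPKM in controls and 116, 101 and 109.7 FPKM in depleted mice. Every depleted mouse lay above every control, a mean difference of 24.3% that did not pass the test (log2 fold change 0.31 ± 0.08 SE, adjusted p = 0.370). Ndufa8, another accessory subunit, read 119, 113 and 123 FPKM in controls and 103, 103 and 100.5 FPKM in depleted mice. Its depleted values were nearly equal to one another and all below the controls (log2 fold change -0.21 ± 0.06 SE, adjusted p = 0.378). Ndufab1, the mitochondrial acyl carrier protein, read 75.5, 73.6 and 70.2 FPKM in controls and 77.2, 83.7 and 77.1 FPKM in depleted mice. It was slightly higher in depleted mice without overlap (log2 fold change 0.12 ± 0.07 SE, adjusted p = 0.590). Ndufb9, the most abundant accessory subunit, read 248, 256 and 268 FPKM in controls and 290.4, 254 and 325 FPKM in depleted mice, with overlapping groups (log2 fold change 0.17 ± 0.09 SE, adjusted p = 0.566).

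Of the accessory subunits, Ndufa1 and Ndufb11 are X-linked, as is Cox7b of complex IV, and A3 and A4 are the mice with the Xist and Y-linked levels given above. Ndufa1 read 115, 118 and 133 FPKM in controls and 114, 96.2 and 112 FPKM in depleted mice. A3 had the highest value of the 6 and the groups did not overlap (log2 fold change -0.18 ± 0.09 SE, adjusted p = 0.518). Ndufb11 read 114, 102 and 116.64 FPKM in controls and 99.3, 94.2 and 104 FPKM in depleted mice, with A6 inside the control range (log2 fold change -0.16 ± 0.08 SE, adjusted p = 0.513). Cox7b read 185, 187 and 192 FPKM in controls and 177, 195 and 199 FPKM in depleted mice, with mixed order (log2 fold change 0.02 ± 0.07 SE, adjusted p = 0.956).

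The lowest fold change of complex I belonged to Ndufs5, an accessory subunit of the intermembrane space side. Its values were 177, 185 and 196 FPKM in controls and 145, 62.0 and 168 FPKM in depleted mice. The groups did not overlap, but A5 alone stood far below the rest (log2 fold change -0.69 ± 0.31 SE, adjusted p = 0.488), and without A5 the log2 fold change was -0.25. BC002163, annotated as a processed pseudogene, is a near-identical intronless copy of Ndufs5 with a row of its own in the table. It read 0, 0 and 0.23 FPKM in A1 to A3 and 26.5, 100.35 and 15.5 FPKM in A4 to A6. Over 319 aligned bases the copy differed from the Ndufs5 transcript at 2 positions (99.4% identity), T81C and A105G, counted from 1 at the A of the Ndufs5 start codon with the Ndufs5 base first. The first 150 coding bases of Ndufs5 (exonic, minus strand) and the same stretch of the copy (plus strand), both from GRCm38 with GENCODE M21, are shown because they hold both differing bases, written in capitals.
Ndufs5, chr4:123715930-123716079: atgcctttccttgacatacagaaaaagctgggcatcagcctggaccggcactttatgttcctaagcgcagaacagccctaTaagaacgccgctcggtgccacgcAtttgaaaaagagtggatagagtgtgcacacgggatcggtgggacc
BC002163, chr16:42955631-42955780: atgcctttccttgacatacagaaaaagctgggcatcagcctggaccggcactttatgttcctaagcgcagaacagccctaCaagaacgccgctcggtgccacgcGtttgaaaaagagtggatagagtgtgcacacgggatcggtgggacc

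Within the 319 aligned bases, a 75-base read that misses both positions cannot be assigned to the gene or the copy by its own sequence. Its mate in the pair may still differ between them. Of the 75-base windows of the Ndufs5 transcript, 32.4% occur unchanged in BC002163. The copy took 0%, 0% and 0.117% of the joint level in A1 to A3 and 15.4%, 61.8% and 8.42% in A4 to A6. Added together, the gene and the copy gave 176.8, 185.3 and 196.2 FPKM in controls and 171.8, 162.3 and 183.5 FPKM in depleted mice, and the groups overlapped (log2 ratio -0.11, p = 0.2, exact two-sided permutation test, n = 3 per group, where the smallest possible p is 0.1). FPKM are divided by the length of each row, and the lengths differ (525 bases for the Ndufs5 transcript, 319 aligned bases for the copy). By these lengths a fragment counted for the copy adds more to the sum than one counted for Ndufs5. The sum and the shares are therefore not fragment counts, and a similar sum does not show that fragments moved between the rows. Whether the fragments counted for the copy came from it or from Ndufs5 cannot be told apart here.

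**Figure D3:**
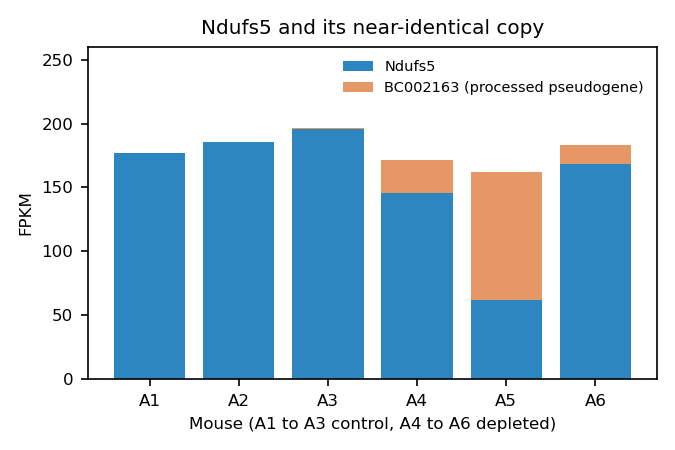
FPKM (y axis) of Ndufs5 and of its copy BC002163, stacked, in each mouse. The copy is at or near 0 in the 3 controls and takes 61.8% of the stack in A5, while the stacks run from 162 to 196 FPKM. The stacks add FPKM of rows of unequal length and are not fragment counts.

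Shared sequence was common in the pathway. By 75-base windows, 20 of 91 members shared at least 5% of their transcript with another annotated gene, mostly processed pseudogenes. For 2 of them, Ndufs5 and Cox7c, the partner had a row in the table. Atp5g2 shared every window with the pseudogenes Gm10175 and Gm10231, which had no row. Levels of such members carry an uncertainty beyond the spread between mice.

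The 7 complex I assembly factors, which help to build the enzyme and are not part of it, were expressed at lower levels, with means from 6.36 to 26.0 FPKM. Of these 3 were higher and 4 lower, with a median of -0.010. Ndufaf6 had the highest fold change of all 91 members. It read 5.60, 4.33 and 5.41 FPKM in controls and 5.60, 8.01 and 9.18 FPKM in depleted mice, and A5 and A6 stood above the controls while A4 did not (log2 fold change 0.47 ± 0.17 SE, adjusted p = 0.418). Ndufaf2 read 25.6, 28.3 and 30.8 FPKM in controls and 23.5, 29.1 and 16.9 FPKM in depleted mice, the low value being that of A6 (log2 fold change -0.30 ± 0.17 SE, adjusted p = 0.574). Its log2 fold change was -0.10 without A6 and -0.47 without A5. Ndufaf3, the most abundant of the 7, read 28.1, 24.1 and 26.0 FPKM in controls and 22.0, 28.5 and 27.5 FPKM in depleted mice (log2 fold change -0.01 ± 0.11 SE, adjusted p = 0.981).

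Complex II, which also works in the citric acid cycle, has 4 subunits, all nuclear. Their fold changes ran from -0.04 to 0.08, with 3 higher and 1 lower. Sdhb, the iron-sulfur subunit, read 118, 112 and 116 FPKM in controls and 125, 119.7 and 121 FPKM in depleted mice, higher in each depleted mouse by a small margin (log2 fold change 0.08 ± 0.06 SE, adjusted p = 0.664). Sdha, the flavoprotein and the most abundant subunit, read 161, 146 and 161 FPKM in controls and 161, 152 and 165 FPKM in depleted mice (log2 fold change 0.03 ± 0.07 SE, adjusted p = 0.896). Sdhc, a membrane anchor, read 69.6, 60.04 and 71.5 FPKM in controls and 62.8, 70.8 and 62.1 FPKM in depleted mice (log2 fold change -0.04 ± 0.09 SE, adjusted p = 0.908).

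Complex III was represented by 8 genes, of which 3 were higher and 5 lower, with a median of -0.07. Uqcrc2, a core protein, read 119.9, 112 and 112 FPKM in controls and 146, 126 and 133 FPKM in depleted mice. All depleted mice lay above all controls (log2 fold change 0.23 ± 0.08 SE, adjusted p = 0.396). Uqcr11, a small subunit, pointed the other way at 278, 239.7 and 290.4 FPKM in controls and 210.3, 229 and 234 FPKM in depleted mice. All depleted mice lay below all controls (log2 fold change -0.26 ± 0.09 SE, adjusted p = 0.396), and after correction for GC content the log2 fold change was -0.16. Uqcrh, the hinge protein next to cytochrome c1, was the most abundant at 408, 372 and 426 FPKM in controls and 351, 378 and 417 FPKM in depleted mice (log2 fold change -0.08 ± 0.09 SE, adjusted p = 0.783). Members of this enzyme differed in sign, with neither direction past the test.

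Complex IV had the widest range of any complex, from -1.20 to 0.44 over 17 genes, and the range was set by its low-abundance isoforms. The ubiquitous subunits varied little. Cox4i1, the regulatory subunit that binds ATP, read 721, 632 and 725 FPKM in controls and 739, 748 and 711 FPKM in depleted mice (log2 fold change 0.08 ± 0.07 SE, adjusted p = 0.710). Cox6a1 read 482, 446 and 467 FPKM in controls and 471, 474 and 446 FPKM in depleted mice (log2 fold change -0.0037 ± 0.06 SE, adjusted p = 0.988), Cox6b1 430.2, 422 and 481 FPKM in controls and 431, 466 and 474 FPKM in depleted mice (log2 fold change 0.04 ± 0.08 SE, adjusted p = 0.869) and Cox8a 713, 638 and 693 FPKM in controls and 614, 749 and 625 FPKM in depleted mice (log2 fold change -0.04 ± 0.09 SE, adjusted p = 0.889). In each of these the groups overlapped. Cox7a2 was the one ubiquitous subunit whose groups did not overlap, at 253, 239 and 259.5 FPKM in controls and 278, 284 and 277 FPKM in depleted mice (log2 fold change 0.16 ± 0.06 SE, adjusted p = 0.451). Ndufa4, named for complex I and now counted as a subunit of complex IV, read 588, 593 and 650.5 FPKM in controls and 669, 575 and 758 FPKM in depleted mice (log2 fold change 0.12 ± 0.10 SE, adjusted p = 0.700). Cox7a2l, a factor in joining complexes III and IV into supercomplexes, read 169, 161 and 173 FPKM in controls and 156, 178 and 181 FPKM in depleted mice (log2 fold change 0.03 ± 0.08 SE, adjusted p = 0.907).

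Several subunits exist as a ubiquitous isoform and a partner restricted to certain tissues, such as heart and skeletal muscle (Cox6a2, Cox7a1, Cox8b), testis (Cox6b2, Cox7b2) or lung (Cox4i2). With the hypoxia-inducible Ndufa4l2, these partners made 7 members at 0.71 to 9.83 FPKM on average. In 6 of the 7 the depleted mean was lower, and their median log2 fold change was -0.36. Their summed level was 26.6, 28.0 and 25.5 FPKM in controls and 15.3, 17.8 and 21.2 FPKM in depleted mice, without overlap. All genes tested under 12 FPKM had a median of -0.0091, with 3983 of 8290 higher and 4307 lower. The groups did not overlap for 661 lower and 625 higher genes of these. Cox8b reached the minimum mean of 0.5 FPKM only through the controls (mean 1.93 against 0.297 FPKM in depleted mice). Cox7b2 reached it only through the depleted mice (mean 1.05 against 0.37 FPKM in controls). The count, median and sum of the 7 therefore describe the set and support nothing by themselves.

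Cox8b read 1.86, 2.15 and 1.79 FPKM in controls and 0.40, 0 and 0.49 FPKM in depleted mice. The groups were far apart and A5 had no signal (log2 fold change -1.20 ± 0.19 SE, adjusted p = 0.225). These levels correspond to an estimated 10, 16 and 12 fragments in controls and 2, 0 and 2 in depleted mice, so the fold change depends on the pseudocount, and a pseudocount of 0.1 gave -2.71. With each mouse weighted by its fit to the model (array weights), Cox8b passed the test (log2 fold change -1.25, limma adjusted p = 0.095), the one member to do so in any setting, where 20 of all genes (0.139%) passed. Cox8b reached the minimum mean of 0.5 FPKM only through the controls (mean 1.93 FPKM, against 0.297 FPKM in depleted mice), so this call supports nothing by itself. Cox6b2 read 4.29, 4.51 and 4.72 FPKM in controls and 3.01, 2.03 and 2.57 FPKM in depleted mice. All depleted mice were lower (log2 fold change -0.65 ± 0.14 SE, adjusted p = 0.315), with an estimated 34, 51 and 48 fragments against 23, 8 and 16.

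The other partners were less uniform among mice. Cox7a1 read 5.17, 5.85 and 3.99 FPKM in controls and 0.39, 4.58 and 2.18 FPKM in depleted mice. A5 lay within the control range and A4 was nearly without signal (log2 fold change -1.03 ± 0.43 SE, adjusted p = 0.457), and the log2 fold change was -0.50 without A4 and -1.50 without A5. Cox6a2 read 9.85, 11.7 and 10.9 FPKM in controls and 7.32, 8.47 and 10.8 FPKM in depleted mice, with A6 inside the control range (log2 fold change -0.27 ± 0.14 SE, adjusted p = 0.526). Cox4i2 read 2.88, 2.28 and 2.16 FPKM in controls and 2.28, 1.15 and 2.31 FPKM in depleted mice (log2 fold change -0.26 ± 0.20 SE, adjusted p = 0.659), and without A5 its log2 fold change was -0.06. Ndufa4l2 read 2.18, 0.96 and 1.69 FPKM in controls and 1.87, 0.58 and 0.74 FPKM in depleted mice (log2 fold change -0.36 ± 0.27 SE, adjusted p = 0.656), and single mice left out gave from -0.63 without A4 to -0.20 without A5. Cox7b2 was the partner with the higher depleted mean, at 0.37, 0.54 and 0.20 FPKM in controls and 0, 1.03 and 2.12 FPKM in depleted mice (log2 fold change 0.44 ± 0.37 SE, adjusted p = 0.692). Its log2 fold change was 0.06 without A6 and 0.89 without A4.

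These isoforms formed a small part of their pairs. Cox8b made 0.283% of the Cox8a and Cox8b sum in controls and 0.0448% in depleted mice, and Cox7a1 made 1.96% and 0.845% of its sum with Cox7a2. Over 6 skeletal and cardiac muscle markers the summed level was 5.51 to 8.02 FPKM in controls and 4.75 to 9.85 FPKM in depleted mice. Most of it was Acta1, with Actc1 at 0 and Ckm at most 0.12 FPKM in all mice. Depth was lower in the depleted libraries, and its part in these low values was not tested.

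**Figure D4:**
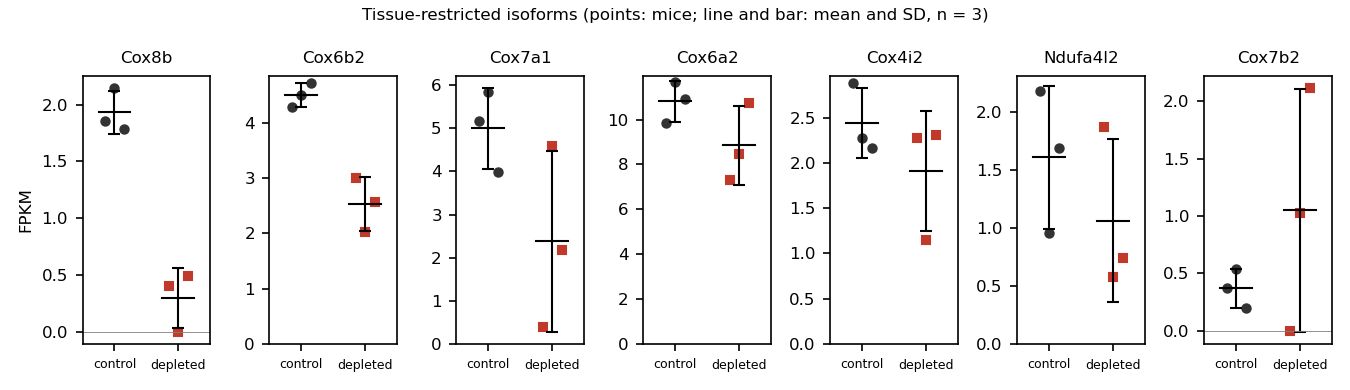
FPKM (y axis, one scale per gene) of the 7 restricted isoforms, with a point for each mouse and a line and bar for the mean and SD (n = 3 per group). Cox8b and Cox6b2 do not overlap between groups, and the other 5 do.

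The ATP synthase turns the proton gradient into ATP, with a catalytic head, a rotating stalk and a membrane ring. Of its 15 genes 12 were higher and 3 lower, with a median of 0.05 and a range from -0.24 to 0.17. In A3 and A4 the median was 0.080 and 0.063 above the control mean and in A2 it was -0.10 relative to it. Atp5b, the catalytic beta subunit and the most abundant, read 731, 679 and 733 FPKM in controls and 708, 684 and 706 FPKM in depleted mice (log2 fold change -0.03 ± 0.06 SE, adjusted p = 0.899). Atp5c1, the gamma subunit at the centre of the rotor, read 207, 196 and 207 FPKM in controls and 228, 226 and 232 FPKM in depleted mice. All depleted mice were above all controls (log2 fold change 0.17 ± 0.06 SE, adjusted p = 0.414). Atp5d, the delta subunit of the same stalk, read 222, 207 and 239 FPKM in controls and 167, 204 and 193 FPKM in depleted mice. All depleted mice were below all controls (log2 fold change -0.24 ± 0.09 SE, adjusted p = 0.432), and with GC correction the log2 fold change was -0.11. Atp5o, part of the outer stalk, read 279.9, 254 and 284 FPKM in controls and 303, 288 and 288 FPKM in depleted mice (log2 fold change 0.11 ± 0.07 SE, adjusted p = 0.615), with a narrow gap between the groups. Atp5j2 had the highest fold change, at 308, 281 and 352 FPKM in controls and 355, 309 and 396.42 FPKM in depleted mice, with overlapping groups (log2 fold change 0.17 ± 0.11 SE, adjusted p = 0.618).

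Subunit c, which forms the ring, is encoded by 3 genes whose mature proteins are the same. Atp5g1 read 209.8, 187 and 219 FPKM in controls and 176, 193 and 169 FPKM in depleted mice (log2 fold change -0.19 ± 0.08 SE, adjusted p = 0.470), Atp5g2 139.6, 125 and 138 FPKM in controls and 139.8, 137 and 135 FPKM in depleted mice (log2 fold change 0.04 ± 0.07 SE, adjusted p = 0.883) and Atp5g3 372, 316 and 351 FPKM in controls and 362, 355 and 359.8 FPKM in depleted mice (log2 fold change 0.05 ± 0.07 SE, adjusted p = 0.821). Their sum was 685.7 ± 50.3 FPKM in controls and 675.5 ± 10.7 FPKM in depleted mice (SD, n = 3 each, p = 0.8, exact two-sided permutation test). Atp5g1 made 29.1%, 29.8% and 30.9% of the sum in controls and 26.0%, 28.2% and 25.5% in depleted mice, without overlap. Of the name matches outside the enzyme, Atp5s read 12.4, 12.1 and 11.96 FPKM in controls and 8.49, 11.1 and 10.7 FPKM in depleted mice (log2 fold change -0.26 ± 0.11 SE, adjusted p = 0.476), also without overlap, and Atp5sl read 15.4, 14.6 and 15.9 FPKM in controls and 14.1, 12.97 and 17.8 FPKM in depleted mice (log2 fold change -0.04 ± 0.12 SE, adjusted p = 0.918).

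Nuclear genes of this pathway are known for promoters that bind NRF1, the ETS factor GABP (also called NRF-2), YY1 and SP1. RefSeq promoters of 300 bases (250 before to 50 after the start, GRCm38.p6) were found for 74 of the 91 members, 80 promoters in all, and were searched on both strands for fixed letters. The NRF1 letters, GCGCA and GCGC with any base between them, stood in 25% of member promoters, 8.96% of the promoters of genes tested and 4.60% of all promoters. The YY1 letters AANATGGC stood in 23.8%, 7.54% and 6.05%, and the ETS letters CCGGAAG in 21.2%, 15.5% and 8.86%. The SP1 letters GGGCGG stood in 41.2%, 60.7% and 35.7%, so members lay below the promoters of genes tested and above all promoters. In 1 member promoter, matches to different motifs overlapped.

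The 150 bases before the start are shown for 2 ubiquitous genes with several matches and for Cox8b, the member with the smallest p, which had none. All are on the minus strand, read 5′ to 3′ along the gene, with matches on either strand in capitals: in Cox6a1 the SP1, NRF1, SP1 and ETS letters in that order, and in Atp5j the YY1 and then the ETS letters.
Cox6a1, chr5:115348959-115349108: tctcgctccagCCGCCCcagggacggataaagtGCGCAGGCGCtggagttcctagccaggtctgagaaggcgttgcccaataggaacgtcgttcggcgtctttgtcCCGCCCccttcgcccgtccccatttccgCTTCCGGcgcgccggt
Atp5j, chr16:84834977-84835126: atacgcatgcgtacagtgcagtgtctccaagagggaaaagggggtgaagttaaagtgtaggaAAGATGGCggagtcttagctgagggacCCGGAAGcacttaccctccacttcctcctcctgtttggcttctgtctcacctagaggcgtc
Cox8b, chr7:140900447-140900596: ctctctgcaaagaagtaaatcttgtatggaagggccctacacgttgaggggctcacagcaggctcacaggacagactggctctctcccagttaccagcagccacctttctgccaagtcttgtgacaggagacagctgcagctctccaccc

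The 19 members with the NRF1 letters had a median log2 fold change of 0.036 and the 55 without them 0.003, and the difference was not tested. A match of letters is a description and does not show binding. The levels of Nrf1 and Gabpa overlapped between the groups. Nrf1 read 5.13, 5.30 and 6.72 FPKM in A1 to A3 and 6.44, 4.65 and 4.89 FPKM in A4 to A6. Gabpa read 5.15, 5.21 and 4.58 FPKM and 4.15, 4.70 and 5.26 FPKM. Esrra, a nuclear receptor that acts with PGC-1alpha on mitochondrial genes, had the lowest fold change of 12 biogenesis regulators, at 26.8, 27.0 and 27.7 FPKM in controls and 21.9, 24.9 and 21.8 FPKM in depleted mice (log2 fold change -0.24 ± 0.08 SE, limma adjusted p = 0.397), without overlap. Gabpb1, a partner of Gabpa, had the highest (0.24 ± 0.18 SE, adjusted p = 0.658). Of the 12, 5 were higher and 7 lower, with a median of -0.02.

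Other genes of mitochondrial energy supply were described in the same way, and none passed the test. Of the 13 subunits encoded by mitochondrial DNA none had a row in the table, and they were not analysed here. Of 10 further oxidative phosphorylation genes outside the name rule, 6 were higher and 4 lower (median 0.031). Among them Cycs, the electron carrier cytochrome c, was lowest at 71.1, 76.0 and 70.6 FPKM in controls and 56.2, 58.6 and 70.7 FPKM in depleted mice (-0.23 ± 0.10 SE, adjusted p = 0.451), and Higd1a, a respiratory complex factor, was highest without overlap (0.22 ± 0.09 SE, adjusted p = 0.443). Of 22 assembly genes, mainly of complexes III and IV, 10 were higher and 12 lower (median -0.014). Their extremes were Cox18 (0.37 ± 0.14 SE, adjusted p = 0.440) and the copper chaperone Sco2 (-0.70 ± 0.29 SE, adjusted p = 0.463), the latter low in A4 and A6 and within the control range in A5.

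The citric acid cycle and pyruvate dehydrogenase genes were 5 higher and 11 lower of 16 (median -0.04), from Suclg2 at -0.19 to Sucla2 at 0.07, both ligase subunits. The 16 glycolytic genes were 6 higher and 10 lower (median -0.04). Aldoc, the brain aldolase of astrocytes, was the lowest at 573, 515 and 536 FPKM in controls and 466, 467 and 489 FPKM in depleted mice, without overlap (-0.19 ± 0.07 SE, adjusted p = 0.409). Hk1 was the highest at 0.14. Of 76 mitochondrial ribosomal protein genes 45 were higher and 31 lower (median 0.041), from Mrpl40 at -0.24 to Mrps6 at 0.39, both without overlap.

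Cytosolic ribosomal protein genes, another set of abundant transcripts, were 66 higher and 11 lower of 77 (median 0.127), with 19 at an unadjusted p under 0.05, all higher, where 4.79% of all genes were higher at this p, and none past the adjusted threshold. They ran from Rpl30 at -0.13 to Rpl26 at 0.65. Their median stood at 0.006, -0.117 and 0.102 in A1, A2 and A3 and at 0.202, 0.026 and 0.158 in A4, A5 and A6. The order of the controls, A2 lowest and A3 highest, was that of the oxidative phosphorylation genes. Median transcript length was 809 bases for the oxidative phosphorylation genes, 775 for the cytosolic ribosomal genes and 2827 for all genes. The part of length in this order of the controls was not tested.

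**Figure D5:**
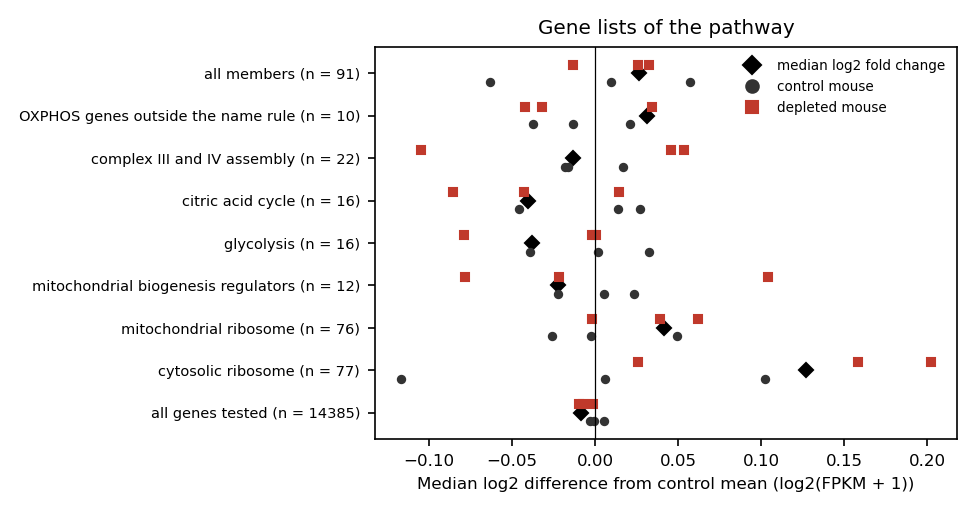
Median log2 difference from the control mean (x axis, log2(FPKM + 1)) for each gene list in each mouse, with circles for controls, squares for depleted mice and diamonds for the median log2 fold change. The oxidative phosphorylation members lie at 0.026 with mice of both groups on either side of 0, and the cytosolic ribosome lies at 0.127.

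GC content went with the fold change over the whole table and within the pathway. In the fifth of genes richest in GC the median was -0.10 for all genes and -0.08 for the 16 members there. In the fifth lowest in GC it was 0.03 for all genes and 0.12 for 10 members. With the correction Atp5d moved from -0.24 to -0.11, Ndufa4l2 from -0.36 to -0.26, Uqcr11 from -0.26 to -0.16 and Cox6a1 from -0.0037 to 0.09. The part of GC content in the remaining differences was not tested.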

How the data were processed

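Frontal cortex of 3 control and 3 microglia-depleted mice was sequenced. The authors extracted RNA with Trizol, selected poly(A) RNA, sequenced 75 base paired ends, aligned with TopHat and quantified known transcripts with RSEM. The table the authors deposited holds TMM-scaled FPKM per gene and mouse. The submitters' processing notes also name mm9 and DESeq, without versions, and the annotation is not given in the sources used here. The deposited unit is not counts, so the authors' count test at an adjusted p of 0.1 could not be repeated.

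Values were taken to log2(FPKM + 1). The groups were compared by limma 3.58.1 (R 4.3.3), using lmFit and a trended eBayes, over the 14385 genes whose mean reached 0.5 FPKM. Benjamini-Hochberg adjustment covered all of these, and the threshold was 0.1. A fold change on this scale understates that of low genes. The labels name no batch or pairing of the mice. The p-values measure the spread between these samples. Summed values were compared by an exact permutation test. Depth was estimated from 1813 single-transcript genes of 400 to 1500 bases, whose low values are whole multiples of 1 fragment. Fragment numbers cover counting error only. GENCODE M21 (GRCm38) matched 23006 genes by symbol, 1274 of them by an older one, and all 91 members. It is not the build named by the submitters, so positions are those of the annotation alone. Promoters came from RefSeq. The fit was tested on simulated data.

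Members and lists were chosen with earlier results of these data known. Genes are named by rule: in each complex the highest and lowest fold change and the highest level, up to 20 members whose groups do not overlap, isoform pairs, X-linked members, Ndufs5, and the extremes of each pathway list. Of the members, 1 counts in the summaries and is not reported here by itself. Nrf1 and Gabpa were named as factors whose motifs were searched. The alternatives changed the scaling (TPM, quantile or median-of-ratios), the minimum mean (none, or 1 FPKM), the pseudocount (0.1), the moderation (robust, or without a trend), the threshold (0.05) and the weights of the mice, corrected for GC or length, or left out 1 mouse. Other steps ran in Python 3.11.15 with pandas 2.3.3, numpy 2.4.6 and matplotlib 3.10.9.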

Additional observations from a re-analysis of the deposited data

How the results depend on the processing

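No member passed the adjusted threshold in any setting but array weights, where 1 did (Cox8b, log2 fold change -1.25). A threshold of 0.05 gave 0. Without a filter 5 members were lower at an unadjusted p under 0.05, and eBayes without trend gave 3 higher and 4 lower, against 5 and 8. Leaving out each mouse in turn gave 0 members past the threshold, 1 to 11 higher and 3 to 11 lower at an unadjusted p under 0.05, 8 to 20 higher and 9 to 17 lower without overlap, a median of -0.0117 to 0.048, and a log2 ratio of Ndufs5 plus BC002163 of -0.155 to -0.0665. Groups of 2 overlap less often than groups of 3 by construction. The counts moved by over 1.5 times as follows. At an unadjusted p under 0.05 there were 3 higher and 3 lower without A1, 1 higher without A2, 3 lower without A3, 8 higher without A4, 11 higher without A5 and 3 higher without A6. Without overlap there were 17 lower without A2, 15 higher without A3, 13 higher without A4, 20 higher and 15 lower without A5, and 13 lower without A6. The median was -0.0117 without A2, 0.048 without A3 and 0.00676 without A4, against 0.0264. Over all genes 29 passed without A5 and 8 without A6, against 4. The cause was not tested.

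Of 43 named members, those near 0 turned sign. Median-of-ratios scaling gave Cox6a1 at 0.00372. Quantile normalization gave Atp5g3 at -0.00983 and Cox6b1 at -0.00573. Array weights gave Ndufaf3 at 0.0282. GC correction gave Cox6a1 at 0.094, Cox7b at -0.00775, Cox8a at 0.0479 and Ndufaf3 at 0.0411. Length correction gave Atp5g2 at -0.041, Cox6b1 at -0.00729 and Cox7b at -0.00358. With a mouse left out the lowest and highest values were -0.0335 and 0.0243 for Cox6a1, -0.079 and 0.1 for Ndufaf3, -0.0149 and 0.0661 for Atp5g2, -0.00933 and 0.108 for Atp5g3, -0.0141 and 0.0649 for Sdha, -0.114 and 0.0102 for Sdhc, -0.136 and 0.00676 for Cox8a, -0.167 and 0.0448 for Atp5sl, -0.0182 and 0.0681 for Cox7b, and -0.00752 and 0.0984 for Cox7a2l. GC correction moved all genes at an unadjusted p under 0.05 from 689 higher and 826 lower to 721 and 545. No paired analysis was possible because the labels name no pairing of the mice. Depth limits the 6 members with a library under 20 estimated fragments.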
